A study of Mus musculus with 10 samples.

Results

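The macrophage and foam cell identity genes described here are 33 genes listed by symbol, read from the platform annotation of the arrays. Of these, 31 had a probe, 25 had a value on at least 1 array, and 22 were measured, with both arrays filled in 3 or more mouse pairs, out of 4299 genes that met the same requirement among 11130 annotated symbols. The arrays compared the aortic arch of ApoE-/-,MyD88-/- mice (double-null) with that of ApoE-/- mice (apoE-null). Mice of both genotypes therefore lack apolipoprotein E, and a high fat diet for 8 weeks is stated on 8 of the 10 arrays, with the same mice on the arrays that do not state it. A two-colour array carried RNA of 1 double-null and 1 apoE-null mouse, and there were 5 such mouse pairs, all on 2 arrays with the dyes exchanged. Both mice were female in pair 1 and male in pairs 2, 3 and 4, while in pair 5 the double-null mouse was male and its partner female. The labels of pair 1 give mice 7 and 8 opposite genotypes on its 2 arrays, and the stated genotype was used. The sources used here do not give strain or age.

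Macrophages in an atherosclerotic artery come from cells that live in the vessel wall and from monocytes that enter it from blood. They take up modified lipoprotein through scavenger receptors, and those that store it as cholesterol ester droplets are called foam cells. MyD88 is the adaptor that passes signals from most Toll-like receptors and from the interleukin-1 receptor family to NF-κB. The series title concerns reduced atherosclerosis without MyD88, so the question for these genes is how the transcripts of plaque leukocytes compare between the genotypes.

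All ratios are given as log2 of double-null over apoE-null, with the deposited sign turned, so that a negative value means less transcript in the double-null mouse. Each array gave 4581 to 7057 values for 13872 probes, and array medians lay between -0.09 and 0.01. As a check of the labels, Myd88 was below 0 on all 10 arrays, between -1.20 and -0.46, and fell 1.86-fold (log2 -0.90 ± 0.22, SD, n = 5 pairs, limma adjusted p = 0.0269); without any 1 pair the adjusted p was 0.0558 to 0.124. Deposited ratios carry no level, so the abundance of each transcript, and whether the arch expressed the defining markers of its cell types, cannot be read from them. Adventitial connective tissue was removed before extraction, per the labels, but in a bulk vessel fewer cells of a type and less RNA per cell cannot be told apart.

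Most measured macrophage genes had lower ratios in double-null aorta, but no single gene passed the test over all genes. The mean log2 ratio was below 0 for 21 of the 22 measured members, against 58.3% of all genes tested, and the median was -0.38, against -0.04 over all genes. The lowest mean was -0.97, for Ptprc, and the highest was 0.39, for Cd36. With limma's test of the pair means against 0 (Benjamini-Hochberg adjustment over 4299 genes, threshold 0.05), 0 of 22 members were called lower and 0 higher, where 0.186% of all genes were called lower and 0.628% higher. At an unadjusted p under 0.05, 8 members were lower (Lyz2, Clec4n, Lyz1, Cd52, Ptprc, Adgre1, Ly86 and Mpeg1) and 0 higher, against 5.44% of all genes lower. Leaving out 1 pair gave 4 such members without pair 1, 6 without pair 2, 5 without pair 3, 3 without pair 4 and 16 without pair 5. Of these settings, the share over all genes was read only without pair 5, where it was 6.46%. The smallest adjusted p of any member was 0.168, for Lyz2. Members were read from the same 5 pairs of RNA and are not independent of one another. They were also chosen with earlier results of these data known.

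**Figure D1:**
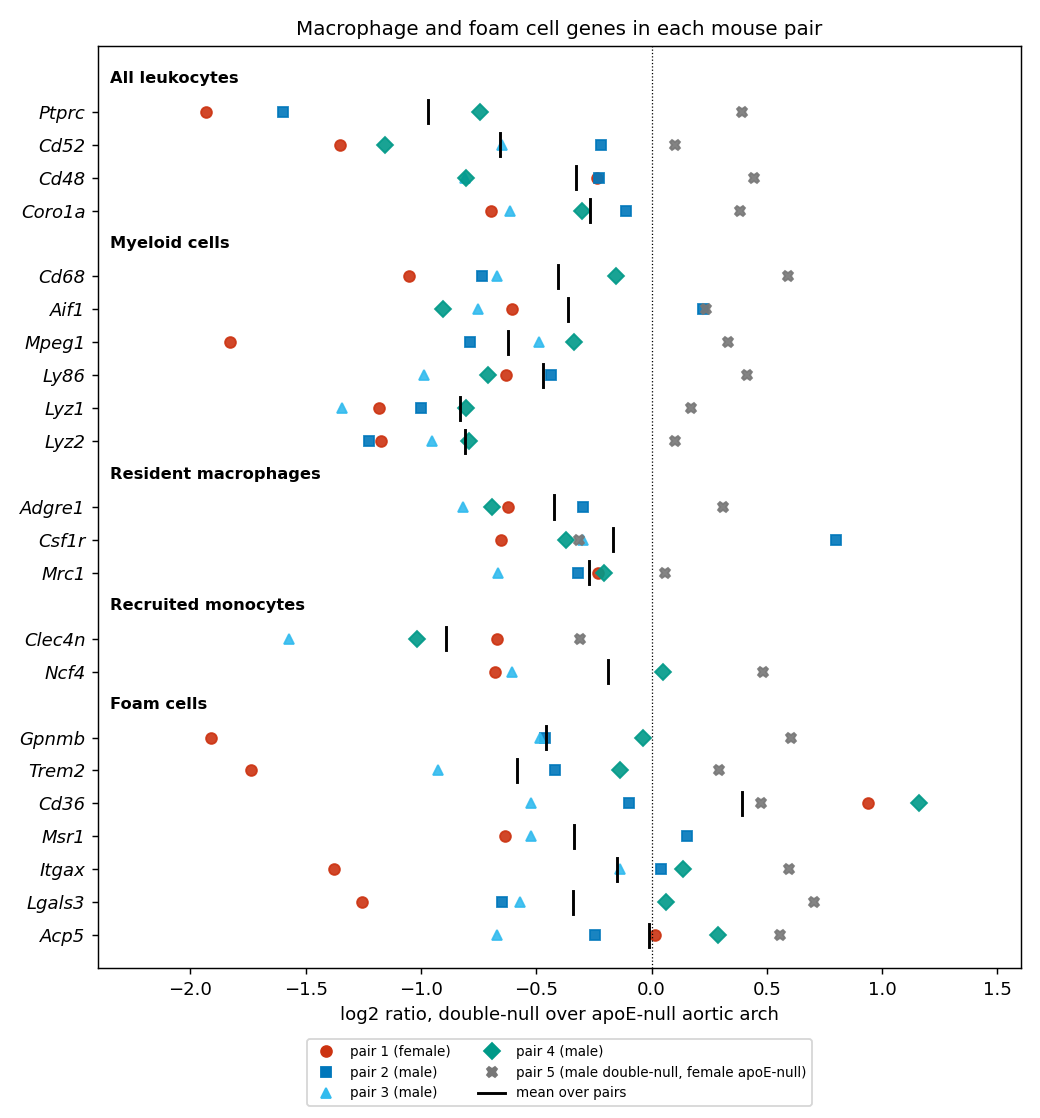
Log2 ratio of double-null over apoE-null (horizontal axis) for the 22 measured genes, with 1 point for each mouse pair and a black bar at the mean over pairs, in 5 groups by role. Grey crosses, the pair of unlike sex, lie right of 0 for 19 of the 21 genes with a value there, all but Csf1r and Clec4n, and the points of the other pairs lie mostly left of 0.

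The mouse pairs differed in direction. In pair 1, 20 of 22 members were below 0 (57.8% of all genes), with a median of -0.69. Pair 2 had 16 of 20 below 0 (53.4% of all genes) and a median of -0.31. In pair 3, where all 21 members with a value were below 0 (50.3% of all genes), the median was -0.66. Pair 4 had 16 of 21 below 0 (55.2% of all genes) and a median of -0.34. Pair 5 went the other way, with 2 of 21 below 0 (56.6% of all genes) and a median of 0.38. The members' median was thus below 0 in the 4 pairs of like sex and above 0 in the pair of unlike sex. The medians of all genes stayed between -0.08 and -0.0021 in the 5 pairs. In pair 5 sex and genotype cannot be told apart. With 1 such pair, unlike sex and that pair of mice cannot be told apart either. Without pair 5, 16 of 22 members were lower at an unadjusted p under 0.05, against 6.46% of all genes, the members' median was -0.61, and 2 were called lower after adjustment, Lyz1 and Lyz2, against 0.245% of all genes. One member of 22, Clec4n, was below 0 in every pair in which it was measured, against 7.91% of all genes.

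Genes shared by white blood cells were Ptprc, Cd52, Cd48 and Coro1a, all 4 with means below 0 and a median of -0.49. Ptprc encodes CD45, the membrane phosphatase found on nucleated blood cells. Its pair values were -1.93 in pair 1, -1.60 in pair 2, -0.74 in pair 4 and 0.39 in pair 5, with none in pair 3. Only pair 5 was above 0, and the mean of -0.97 ± 1.04 (SD, n = 4 pairs, adjusted p = 0.468) was less than its spread. Cd52, a small glycopeptide anchored to the surface of lymphocytes and macrophages, had -1.35, -0.22, -0.65, -1.16 and 0.10 in pairs 1 to 5. Its mean was -0.66 ± 0.61 (SD, n = 5 pairs, adjusted p = 0.356), so it did not pass. Cd48, an adhesion partner of CD2 and CD244, read -0.81 in both pair 3 and pair 4, -0.24 in pair 1, -0.23 in pair 2 and 0.45 in pair 5. Coro1a, which binds leukocyte actin, ranged from -0.70 in pair 1 to 0.38 in pair 5. Both genes were thus low in 4 pairs and high in 1, and neither passed (adjusted p = 0.587 and 0.601). One more gene of this group, the lysosomal membrane protein gene Laptm5, had both arrays in only 2 pairs and was not tested. It read 0.45 and -1.27 on the arrays of pair 1, and -0.82 and 0.0014 on those of pair 4.

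General myeloid genes had a median of -0.55, with all 6 below 0. The lysozyme genes Lyz1 and Lyz2 encode hydrolases of the bacterial cell wall. Lyz2 is the form that macrophages and granulocytes secrete, and Lyz1 was grouped with it here. Lyz2 had pair values of -1.17, -1.23, -0.95, -0.79 and 0.10 in pairs 1 to 5, and Lyz1 had -1.18, -1.001, -1.34, -0.80 and 0.17. In each gene the 4 pairs of like sex lay together between -1.34 and -0.79, and pair 5 lay apart, just above 0. The means were -0.81 ± 0.54 for Lyz2 (SD, n = 5 pairs, 1.75-fold lower, adjusted p = 0.168) and -0.83 ± 0.60 for Lyz1 (SD, n = 5 pairs, 1.78-fold lower, adjusted p = 0.188). Without pair 5 the means were -1.04 and -1.08, each with an adjusted p of 0.0383, and in the 3 male pairs alone they were -0.99 (adjusted p = 0.0293) and -1.05 (adjusted p = 0.0281), where these were 2 of 18 measured members and 0.528% of all genes was called lower. Over all alternatives the adjusted p ran from 0.0281 to 0.660 for Lyz1 and from 0.0293 to 0.660 for Lyz2. One array of pair 3 read -1.96 for Lyz2 and its dye-swapped partner 0.05, the widest gap between orientations of any member, 2.01.

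The 2 lysozyme genes are close paralogs, so their probes may read the same transcripts. They lie near each other on the minus strand of chromosome 10, and the 250 bases before each transcription start (RefSeq, assembly GRCm38.p6) are shown because of that likeness. Lyz1 is at chr10:117292869-117293118 and Lyz2 at chr10:117282273-117282522. Capitals mark the longest stretch that both share, the last 50 bases before the start.
Lyz1: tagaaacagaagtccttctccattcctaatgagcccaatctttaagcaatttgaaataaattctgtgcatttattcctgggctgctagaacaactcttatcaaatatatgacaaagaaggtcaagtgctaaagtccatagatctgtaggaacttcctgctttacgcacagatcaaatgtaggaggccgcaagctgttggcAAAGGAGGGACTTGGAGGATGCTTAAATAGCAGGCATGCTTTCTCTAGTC
Lyz2: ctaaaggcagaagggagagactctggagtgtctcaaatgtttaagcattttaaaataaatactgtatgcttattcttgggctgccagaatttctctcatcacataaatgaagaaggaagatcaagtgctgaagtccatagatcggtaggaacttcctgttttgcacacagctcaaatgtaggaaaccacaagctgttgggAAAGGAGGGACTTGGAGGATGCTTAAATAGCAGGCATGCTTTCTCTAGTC
A global alignment of these stretches matched 200 of 252 columns (79.4%). Whether the probes read both transcripts was not tested.

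Mpeg1, Ly86, Cd68 and Aif1 make up the rest of the myeloid group. Mpeg1, perforin-2, a pore-forming protein of phagocytes, had -1.83 in pair 1, -0.79 in pair 2, -0.49 in pair 3, -0.34 in pair 4 and 0.33 in pair 5 (mean -0.62 ± 0.79, SD, n = 5 pairs, adjusted p = 0.514). Pair 1 stood lowest for this gene by a wide margin, and without it the mean was -0.32. Ly86, also called MD-1, which pairs with the Toll-like receptor relative RP105, had -0.63, -0.43, -0.99, -0.71 and 0.42 in pairs 1 to 5, with no like margin. The endosomal glycoprotein gene Cd68, a standard stain for plaque macrophages, had -1.05, -0.74, -0.67, -0.15 and 0.59 (mean -0.40 ± 0.64, SD, n = 5 pairs, adjusted p = 0.579). Aif1, the calcium-binding protein Iba1, was above 0 in both pair 2 (0.22) and pair 5 (0.24) and between -0.90 and -0.61 in the others. Spi1, which encodes the myeloid transcription factor PU.1, had 5 array values, between -0.49 and 0.24, and both arrays in 1 pair only, so it was not tested.

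Genes grouped as resident macrophage markers had a median of -0.27 over 3 genes (-0.41 without pair 2 and -0.18 without pair 3). The grouping is by list, and in bulk tissue these genes do not separate resident from recruited macrophages. Adgre1, an adhesion receptor used as a mouse macrophage marker, had pair values of -0.62, -0.30, -0.82, -0.69 and 0.31 and a mean of -0.42 ± 0.45 (SD, n = 5 pairs, adjusted p = 0.504). Mrc1, the mannose receptor of tissue macrophages, had -0.23, -0.32, -0.66, -0.21 and 0.06, the narrowest spread of the 22 members (SD of 0.26), with a mean of -0.27 (n = 5 pairs, adjusted p = 0.531). The pair means of both were below 0 in the 4 pairs of like sex and above it in pair 5. The arrays of a pair differed in sign for Mrc1 in pair 4 (0.05 and -0.47) and pair 5 (-0.01 and 0.13). For Adgre1 they did so in pair 2 (0.07 and -0.67). Csf1r, the receptor for the growth factor that keeps macrophages alive, followed neither Adgre1 nor Mrc1. It was 0.80 in pair 2 and between -0.65 and -0.30 in the other 4, pair 5 included, and its mean of -0.17 ± 0.56 (SD, n = 5 pairs, adjusted p = 0.764) was near 0. Both arrays of pair 2 were above 0, at 0.51 and 1.09. The fractalkine receptor gene Cx3cr1 was blank on every array.

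Of the genes linked to recruited monocytes, 2 of 8 could be tested. Clec4n, dectin-2, a receptor for fungal mannans carried by inflammatory monocytes and macrophages, had -0.67 in pair 1, -1.57 in pair 3, -1.02 in pair 4 and -0.31 in pair 5, with no value in pair 2. All 8 of its array values were below 0, between -2.001 and -0.14, pair 5 included. Its mean was -0.89 ± 0.54 (SD, n = 4 pairs, 1.86-fold lower, 95% interval -1.38 to -0.40, adjusted p = 0.175). Ncf4, a cytosolic subunit of the phagocyte NADPH oxidase, had -0.68 in pair 1, -0.61 in pair 3, 0.05 in pair 4 and 0.48 in pair 5, so 2 pairs were low and 2 were not (mean -0.19 ± 0.55, SD, n = 4 pairs, adjusted p = 0.756). The chemokine receptor gene Ccr2, lectin gene Chil3, complement receptor gene C5ar1 and oxidase genes Cybb and Ncf1 were blank on every array. Itgam and, among the leukocyte genes, Cd53 had no probe in the platform annotation. The reason for blank cells is not stated, and the group's median, -0.54, rests on these 2 genes; it was -0.36 without pair 3.

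Foam cell and lipid-handling genes had the widest differences between pairs. Their median over 7 genes was -0.33, which was the mean of Msr1, a gene without a value in pairs 4 and 5. With values required in all 5 pairs the median was -0.25 over 6 genes. The pair medians were -1.26, -0.24, -0.52, 0.10 and 0.58 in pairs 1 to 5. They rest on 7 genes in pairs 1 to 3 and on 6 in pairs 4 and 5. The group's median was -0.057 without pair 1 and -0.22 without pair 3. Trem2, the lipid-sensing receptor of foamy macrophages, had -1.74, -0.42, -0.92, -0.14 and 0.29 (mean -0.59 ± 0.78, SD, n = 5 pairs, adjusted p = 0.525). Gpnmb, a glycoprotein of lipid-laden lysosomes, had -1.91, -0.46, -0.49, -0.04 and 0.60 (mean -0.46 ± 0.92, SD, n = 5 pairs, adjusted p = 0.620). Lgals3, galectin-3, had -1.26, -0.65, -0.57, 0.06 and 0.70 (mean -0.34 ± 0.75, SD, n = 5 pairs, adjusted p = 0.652). These 3 genes had the same order at the extremes, with pair 1 lowest, pair 4 nearest 0 and pair 5 highest. Without pair 1 the means were -0.30 for Trem2, -0.095 for Gpnmb and -0.11 for Lgals3. Itgax, the integrin CD11c, had -1.38 in pair 1 and -0.14 to 0.60 in the others (mean -0.15 ± 0.74, SD, n = 5 pairs, adjusted p = 0.842), and without pair 1 its mean was 0.16. Msr1, scavenger receptor A, had 3 pair values, -0.63 in pair 1, 0.15 in pair 2 and -0.52 in pair 3 (mean -0.33 ± 0.43, SD, n = 3 pairs, adjusted p = 0.601). Its single arrays in pairs 4 and 5 read 0.05 and 0.23. Acp5, the acid phosphatase of osteoclasts and some macrophages, had a mean of -0.011 ± 0.47 (SD, n = 5 pairs, adjusted p = 0.986), with values on both sides of 0 and a mean of 0.020 when arrays were centred on their medians. Marco, a scavenger receptor, had 3 array values in 3 different pairs, between -0.29 and 0.28, and was not tested.

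The 2 Trem2 probes with at least 3 pair values were alike in pair 1, with array values of -1.72 and -1.69 for one and -2.02 and -1.52 for the other. In pair 4 they differed in sign, with 0.06 and 0.35 for the first probe and -0.54 and -0.42 for the second. Another Trem2 probe had both arrays in pair 3 only, at -0.57 and -0.64, and was left out of the average.

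Cd36, the fatty acid translocase and oxidised LDL receptor, was the 1 measured member with a mean above 0, 0.39 ± 0.70 (SD, n = 5 pairs, adjusted p = 0.599). Its pair values were 0.94, -0.10, -0.52, 1.16 and 0.47, so pairs 1 and 4 were highest, where other foam cell genes were low or near 0. Cd36 is also abundant in fat cells and capillary endothelium. The median of 14 measured adipocyte markers was 2.30 in pair 1, 1.12 in pair 4, -0.39 in pair 2, -0.51 in pair 3 and -0.44 in pair 5, and 13 of the 14 were above 0 in pair 1 and all 14 in pair 4. Adipocyte values ranged from -0.39 to 3.02 in pair 1, from -1.23 to 0.56 in pair 2, from -1.53 to 0.74 in pair 3, from 0.06 to 2.04 in pair 4 and from -1.50 to 1.49 in pair 5. Over the 5 pairs none of the 14 passed; Lpl, which macrophages express too, was at -0.42 (adjusted p = 0.541) and Scd1 at 0.72 (adjusted p = 0.573). The part of adipose tissue in the Cd36 ratio was not tested. Without Cd36, the median of the other 21 measured members was -0.40. Cd36 had the highest mean, so leaving it out could not raise the median.

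**Figure D2:**
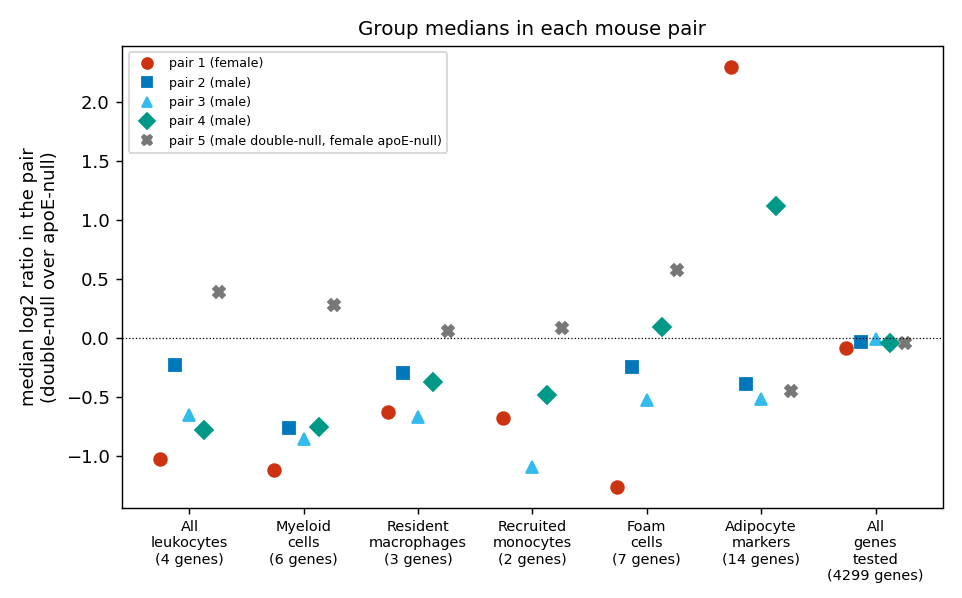
Median log2 ratio of each role group in each mouse pair (vertical axis, double-null over apoE-null), beside the medians of 14 adipocyte markers and of all 4299 genes. In pair 4 the foam cell median (0.10) lies apart from the myeloid median (-0.75), and in pair 5 all 5 role groups lie above 0.

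The groups separated most in pair 4. There the white blood cell and myeloid medians were -0.77 and -0.75, with 4 of 4 and 6 of 6 genes below 0, the resident median was -0.37, and the foam cell median was 0.10, with 2 of 6 genes below 0. In pair 1 the foam cell median was the lowest of the 5 groups, at -1.26, against -1.11 for myeloid, -1.02 for white blood cell, -0.67 for recruited and -0.62 for resident genes. Pair 3 had all groups below 0, from -1.09 for recruited genes to -0.52 for foam cell genes. In pair 5 the foam cell median was the highest, at 0.58, with 0.39 for white blood cell, 0.28 for myeloid, 0.09 for recruited and 0.06 for resident genes. The differences between groups have no test here, since groups hold few genes that share RNA.

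**Figure D3:**
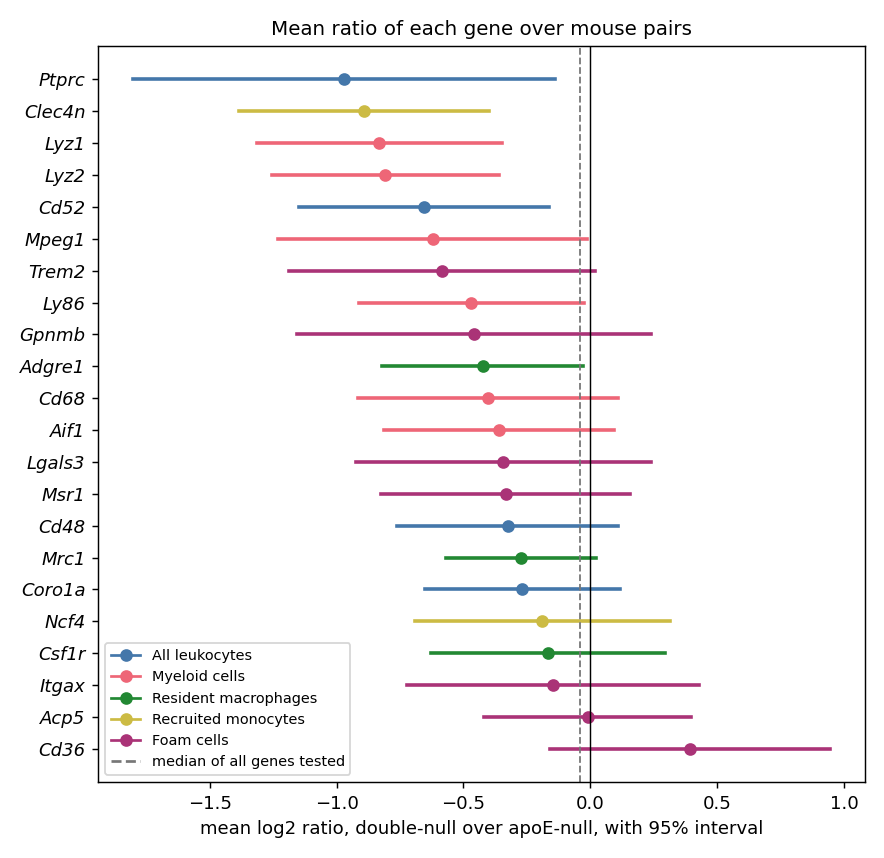
Mean log2 ratio over mouse pairs with its 95% interval from limma (horizontal axis) for the 22 measured genes, coloured by role and ordered by the mean, with the median of all genes as a dashed line. The interval lies below 0 for 8 genes and spans 0 for the other 14, Cd36 among them at 0.39.

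The female pair was compared with the 3 male pairs, but with 1 female pair, sex and that pair of mice cannot be told apart. Of 18 members with values in pairs 1 to 4, limma called 0 (0.21% of all genes were called), and 5 had an unadjusted p under 0.05, all lower in pair 1, against 7.64% of all genes lower at that threshold. These 5 were genes for which pair 1 was the lowest pair. Gpnmb was -1.91 in the female pair against a mean of -0.33 in the male pairs, a difference of -1.58 (adjusted p = 0.105). Itgax differed by -1.39 (adjusted p = 0.127), Mpeg1 by -1.29 (adjusted p = 0.132), Trem2 by -1.24 (adjusted p = 0.171) and Lgals3 by -0.87 (adjusted p = 0.291). By contrast Lyz1 differed by -0.13 and Adgre1 by -0.02. Only the male pairs give these p-values their spread, and the female pair was also the pair with the highest adipocyte median.

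**Figure D4:**
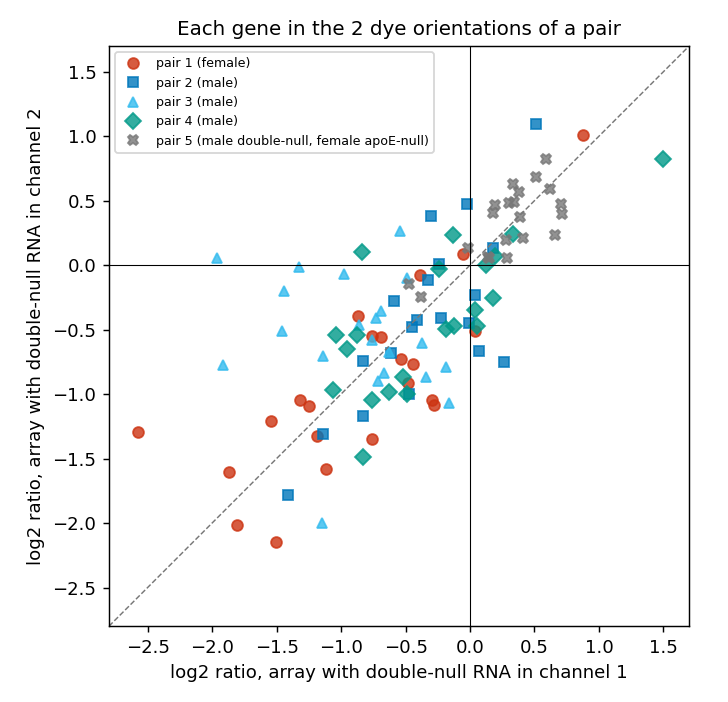
Log2 ratio of each of the 22 measured genes on the array with double-null RNA in channel 1 (horizontal axis) against the array of the same pair with it in channel 2 (vertical axis), with 1 point for each gene and pair and the line of equality dashed. Of 105 points, 89 lie in a quadrant where both arrays have the same sign, and the points of pair 5 cluster in the upper right.

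The 2 dye orientations mostly gave a member the same sign, a share that was not read over all genes. The arrays of a pair had the same sign in 89 of 105 member values (84.8%), in 20 of 22 in pair 1, 14 of 20 in pair 2, 19 of 21 in pair 3, 16 of 21 in pair 4 and 20 of 21 in pair 5. By limma's test of the difference between orientations, 0 of 22 members had an adjusted p under 0.05, against 4.82% of all genes, and 4 had an unadjusted p under 0.05 (Csf1r, Ly86, Cd48 and Itgax), against 21.2% of all genes. Csf1r averaged -0.39 with double-null RNA in channel 1 and 0.058 with it in channel 2, and Itgax -0.34 and 0.039, so the sign of both means depended on the orientation. Ly86 averaged -0.69 and -0.25, and Cd48 -0.13 and -0.52, each below 0 in both.

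PU.1 and AP-1 are transcription factors that bind many macrophage genes, so the 250 bases before each start were searched for their motifs, on both strands. RefSeq promoters of assembly GRCm38.p6 were matched by symbol for 26 of the 33 genes (30 promoters). The PU.1 core GAGGAA was in 9 of the 30 member promoters (30.0%) and in 23.3% of all 32851 promoters. Its longer form GAGGAAGT, which contains the core, was in 0 of the 30 and in 2.44% of all. TGANTCA, a pattern looser than the AP-1 site TGAGTCA or TGACTCA, was in 4 of the 30 (13.3%) and in 6.75% of all. TATAAA was in 2 of the 30 (6.67%) and in 12.4% of all. Cd68 and Trem2 held both the PU.1 core and a TGANTCA match, and are shown with these in capitals. The Cd68 stretch is at chr11:69666171-69666420 on the minus strand, with the core at position -225 and AP-1 matches at -149 and -24. Trem2 is at chr17:48346151-48346400 on the plus strand. Its core is on the opposite strand at -40, and its TGANTCA match, which reads TGAATCA, is at -9. Positions are counted back from the transcription start to the first base of the match.
Cd68: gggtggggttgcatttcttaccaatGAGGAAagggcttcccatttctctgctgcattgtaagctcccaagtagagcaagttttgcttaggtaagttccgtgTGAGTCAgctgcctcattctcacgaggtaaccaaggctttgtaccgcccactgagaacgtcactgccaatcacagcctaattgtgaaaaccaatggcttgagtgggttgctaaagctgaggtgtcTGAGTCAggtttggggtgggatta
Trem2: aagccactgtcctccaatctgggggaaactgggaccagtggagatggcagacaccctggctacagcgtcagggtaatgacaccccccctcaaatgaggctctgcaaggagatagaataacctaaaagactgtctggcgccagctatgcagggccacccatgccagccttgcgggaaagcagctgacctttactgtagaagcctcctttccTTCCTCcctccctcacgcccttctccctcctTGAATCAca
Whether these factors act on the ratios was not tested, and a match is a description of the letters only.

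Other macrophage genes outside the 33 had medians below 0 in pairs 1 to 4 and above 0 in pair 5. They were read from the same RNA and listed with earlier results of these data known, so they are not separate support. Of 55 such genes listed, 35 were measured, 29 of them below 0, against 58.3% of all genes. Their median was -0.28, with pair medians of -0.96, -0.38, -0.48, -0.17 and 0.21 in pairs 1 to 5. Genes below 0 were 28 of 33 in pair 1, 26 of 31 in pair 2 and 29 of 33 in pair 3. In pair 4 they were 21 of 34 (55.2% of all genes), and in pair 5 they were 9 of 31 (56.6% of all genes). In this list 1 gene fell, 0 rose and 34 did not pass, where 0.186% of all genes were called lower and 0.628% higher. At an unadjusted p under 0.05, 11 were lower, against 5.44% of all genes. Cd5l, a secreted protein of tissue macrophages, fell 4.07-fold (adjusted p = 0.0126), with -1.06 in pair 5 and -2.70 to -1.91 in the other pairs, so unlike most of the 22 members it was below 0 in pair 5. Its call was lost without pair 2 (adjusted p = 0.114), pair 3 (0.0550) or pair 4 (0.0846). The complement genes C1qa (-0.87, n = 3 pairs, adjusted p = 0.195) and C1qc (-0.60, n = 5 pairs, adjusted p = 0.299) and the inhibitory Fc receptor gene Fcgr2b (-0.62, n = 3 pairs, adjusted p = 0.305) did not pass.

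Markers of the vessel wall were measured beside the macrophage genes. The 9 measured smooth muscle markers had a median of -0.20 and pair medians of -0.51, -0.36, 0.31, 0.01 and -0.40. In pairs 1 and 2, where most members were below 0, 8 of 9 and 7 of 9 of these markers were below 0 too. Pair 3, where every member with a value was below 0, had 9 of 9 above 0. Pair 4 had 4 of 9 below 0 and pair 5 had 7 of 8 below. Of these, Actg2 (-0.32) and Tpm1 (-0.27) had the smallest p, and 0 passed. The 10 fibroblast markers had a median of -0.19 and pair medians between -0.34 and 0.09, with Lum at -0.69 (adjusted p = 0.172) and Dpt at -0.30 (adjusted p = 0.521). The 10 endothelial markers had pair medians between -0.05 and 0.11, over values on both sides of 0 (-1.05 to 0.89 in pair 1), a largest single mean of 0.28 for Cldn5 (adjusted p = 0.521) and 0.24 for Kdr (adjusted p = 0.663). The part of wall composition in the macrophage ratios was not tested.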

How the data were processed

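Two-colour arrays of mouse aortic arch RNA were scanned on a GenePix 4000B and quantified with GenePix Pro, and the authors used GeneSpring for analysis, per the labels' descriptions. They deposited log2 ratios, apoE-null over double-null per the titles. How these were normalized and why cells are blank is not stated, and the number of arrays limits the precision. Signs were turned, the 2 arrays of a pair averaged (both required), probes with 3 or more pair values kept, and probes of a gene averaged. Probes were named by the platform's gene table, with symbols brought up to date through Entrez numbers (12009 of 12143). Each gene was tested against 0 with limma 3.58.1 (lmFit, eBayes, two-sided, Benjamini-Hochberg) in R 4.3.3. The fit was checked only on simulated data with log2 shifts of 2 up or down, larger than any member mean. Mice are numbered separately in the labels, and the p-values rest on the spread of the pairs. The pairing comes from the mice named on each array. The genes, their 5 role groups and all lists were chosen with earlier results of these data known. Every member with a value was named, up to 4 genes of the other macrophage list and up to 2 of each other marker list by smallest p. Alternatives covered the pairs used, orientations, scaling, filters, and the variance model. Scanner intensities were not analysed here.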

Additional observations from a re-analysis of the deposited data

Results flagged for a closer look

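Among 27 groups of 4 or 5 pair values (the members with that many, the median of each of the 5 role groups and the median of all members), 2 had a pair far from the others, and chance flags about 1 in 20 such groups. Csf1r was 0.80 in pair 2, against -0.65 to -0.30 in the other pairs. The median of the general myeloid genes was 0.28 in pair 5, against -1.11 to -0.75 in the other pairs. Of the 18 members tested for a difference of pair 1 from pairs 2 to 4, limma called 0 at an adjusted p under 0.05, the smallest being 0.105, and 5 had an unadjusted p under 0.05, all lower in pair 1, against 7.64% of all genes. With 1 female pair, sex and that pair of mice cannot be told apart.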

How the results depend on the processing

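Over 19 alternatives, 388 of 403 values of the 22 measured members kept their direction and their side of the threshold, 9 changed sign and 6, those of Lyz1 and Lyz2, passed the threshold. Csf1r turned to 0.058 and Itgax to 0.039 on the second orientation alone (double-null RNA in channel 2), and to 0.046 and 0.013 in pairs 2, 3 and 4 alone. Acp5 turned to 0.020 with arrays centred and to 0.055 with arrays centred and scaled. Leaving out 1 pair gave Itgax -0.33 to 0.16 and Acp5 -0.15 to 0.15, and 0 to 2 members called lower and 3 to 16 lower at an unadjusted p under 0.05. Lyz1 and Lyz2 were the 2 members called without pair 5, in pairs 2, 3 and 4 alone, and in the 4 pairs of like sex with values in all 4, a setting added after the data were seen, where 14 of 18 members were lower at an unadjusted p. The count of members lower at an unadjusted p under 0.05 was 5 with arrays centred, centred and scaled, or with a trended, robust variance. For these counts the share over all genes was read only in the main fit (5.44%) and without pair 5 (6.46%). The medians of the members and of the 5 role groups stayed below 0 in every alternative that gave one; the recruited group had none with values required in all 5 pairs, in pairs 2, 3 and 4 alone or in the 4 pairs of like sex. The order of the group medians changed between alternatives: without pair 1 the white blood cell median was -0.42 and the myeloid median -0.37. The foam cell median was -0.15 with a pair value from 1 array and -0.21 with arrays centred and scaled, and the white blood cell median was -0.33 with values in all 5 pairs. Over all genes, 8 were called lower and 27 higher. The calls were 3 and 4 with a pair value from 1 array, and 21 and 42 in the array-level fit with the mouse pair as a replicate block, which called 0 members and gave a foam cell median of -0.19. They were 20 and 9 on the first orientation alone, with 90 higher on the second, 0 and 0 with the trended, robust variance, 3 and 0 without probes with a dye effect, and 18 and 15 in pairs 2, 3 and 4. With at least 2 pair values 5 were lower, and in the 4 pairs of like sex 7 were higher. Leaving out 1 pair gave 0 to 10 lower and 0 to 7 higher. The causes were not tested. Ratios without intensities do not show how far a signal lay above background, and 11 of the 33 genes could not be tested.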

Other observations

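Among genes listed for dendritic cells, the 3 measured were those of MHC class II presentation, which macrophages and B cells express too, and their median was -0.75. Cd74, the invariant chain, was at -0.87 ± 0.40 (SD, n = 5 pairs, limma adjusted p = 0.0538), and H2-Eb1, a class II beta chain, at -0.71 ± 0.29 (SD, n = 5 pairs, adjusted p = 0.0640). H2-Ab1, another beta chain, was at -0.75 ± 0.57 (SD, n = 5 pairs, adjusted p = 0.240). None of the 3 passed. Cd74 and H2-Eb1 were below 0 in all 5 pairs, at -0.37 in pair 5, and H2-Ab1 was below 0 in 4 and at 0.11 in pair 5.

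Markers of other blood cells were measured in small numbers. Of 12 neutrophil genes listed, 5 were measured, with a median of 0.17, and 1 was below 0. That gene, Lcn2, a siderophore-binding protein of neutrophils and other stimulated cells, fell 2.38-fold, with a mean log2 ratio of -1.25 ± 0.26 (SD) over n = 3 pairs and an adjusted p of 0.0434. The call was lost without pair 3 (adjusted p = 0.0726) or pair 4 (adjusted p = 0.124), in which it had no pair value, and without any other pair it could not be tested. The granule gene Ngp had 0.24 ± 0.22 (SD, n = 3 pairs, adjusted p = 0.629). The 2 measured T cell genes were near 0, Cd4 at 0.07 ± 0.17 and Il7r at -0.05 ± 0.74 (SD, n = 5 pairs each). The 4 measured B cell genes had a median of -0.32, with Cd22 at -0.43 ± 0.56 (SD, n = 5 pairs, adjusted p = 0.531) and Cd79b at 0.28 ± 0.21 (SD, n = 4 pairs). The 3 measured red cell genes were above 0 in every pair, with Alas2 at 1.19 ± 0.78 and Hbb-b2 at 1.07 ± 0.75 (SD, n = 5 pairs each, adjusted p = 0.119 and 0.162), and 0 passed. Of the 8 measured striated muscle genes 5 were above 0; the median was 0.12, and by pair it ran from -0.89 in pair 1 to 1.07 in pair 2, with Actc1 at -0.45 ± 0.33 (SD, n = 4 pairs) and Ryr2 at -0.21 ± 0.23 (SD, n = 5 pairs), and 0 passed.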
